A study of Mus musculus with 8 samples.

Results

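Cathepsins are the proteases of endosomes and lysosomes, and 8 cathepsin genes (*Ctsl*, *Ctss*, *Ctsb*, *Ctsd*, *Ctsh*, *Ctsz*, *Ctsc*, and *Ctse*) together with *Cst3*, which encodes the secreted cathepsin inhibitor cystatin C, were followed across sorted embryonic thymic epithelial cells (TECs). These 9 genes were picked by symbol out of the 55450 genes of the deposited table, and all 9 were among the 21451 genes that passed the filter on low counts and were tested. CD45-EpCAM+ TECs were sorted from the thymus at embryonic day 17 (E17), from embryos that carry tdTomato knocked into one *Ccl21a* allele and a reporter in which Venus marks expression of the cytokine receptor RANK (*Tnfrsf11a*). All groups carry both reporters and differ only in which reporter the sorted cells showed, namely CCL21+RANK- (3 libraries, called CCL21+ below), CCL21-RANK+ (3 libraries, called RANK+), and CCL21-RANK- (2 libraries, called double-negative). A checklist of the study describes its replicates in general as biological, without saying which embryos or litters went into each library, and the p-values below measure the spread between these libraries.

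Loading of peptides onto MHC class II needs endosomal proteases, which cut antigens and trim the invariant chain (Cd74) that blocks the class II groove. In the thymus, cathepsin L is known as the invariant-chain protease of cortical TECs, where it takes part in the selection of CD4 T cells, whereas cathepsin S is known for this role in dendritic cells, B cells, and medullary epithelium. Most other cathepsins have broader roles in lysosomal protein turnover, and cystatin C and the stefins inhibit the cysteine cathepsins but not the aspartic ones.

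The populations were first checked against marker genes. All 8 cortical TEC markers were lower in RANK+ TECs than in CCL21+ and than in double-negative TECs, among them *Cxcl12*, *Ly75*, and *Psmb11*. *Prss16*, the most abundant of them, was at 1023, 907, and 1017 RPKM in CCL21+, 72.9, 100.5, and 59.97 RPKM in RANK+, and 865 and 920.0 RPKM in double-negative libraries. Of the 8 medullary markers, 5 were higher in RANK+ than in CCL21+ TECs, including *Fezf2*, *Cd80*, and *Aire*, whereas *Ccl21a* and *Krt5* were lower. Between CCL21+ and double-negative TECs, 5 medullary markers were higher in the former, but of the cortical markers only *Dll4* passed the test, and it was lower. Summed over the 8 genes, cortical markers were at 1688, 1595, and 1848 RPKM in CCL21+ and 1627 and 1716 RPKM in double-negative libraries, so cortical and medullary name genes here and not a clean split of the 3 populations. Of 5 epithelial markers, *Epcam* was higher and *Krt8*, *Krt18*, and *Foxn1* were lower in RANK+ than in CCL21+ TECs. RPKM, which scales counts to the exon length of a gene and to the library total, was calculated from library totals of 59677342, 46003149, and 55116934 counts in CCL21+, 57286773, 50146758, and 42751858 counts in RANK+, and 67451448 and 71625319 counts in double-negative libraries.

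The cathepsins changed in opposite directions between the populations. *Ctsl* was the leading cathepsin of both RANK- populations and was 11.4-fold lower in RANK+ than in CCL21+ TECs, whereas *Ctss* was 18.3-fold, *Ctsh* 16.2-fold, *Ctsc* 4.26-fold, and *Ctsz* 2.91-fold higher. *Ctsd* and *Cst3* were 2.15-fold and 1.70-fold lower, and *Ctsb* did not pass the test. In this comparison 30.9% of all tested genes were called (adjusted p under 0.05 in edgeR's quasi-likelihood test, fold change over 1.5, and mean RPKM over 1 in the higher group), 15.4% higher and 15.4% lower. Of the 9 genes 7 were called, 4 higher and 3 lower, and the libraries of the groups did not overlap for 8 of the 9, against 59.8% of all tested genes. The median log2 fold change of the 9 genes was 1.54, beside 0.11 over all tested genes.

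**Figure D1:**
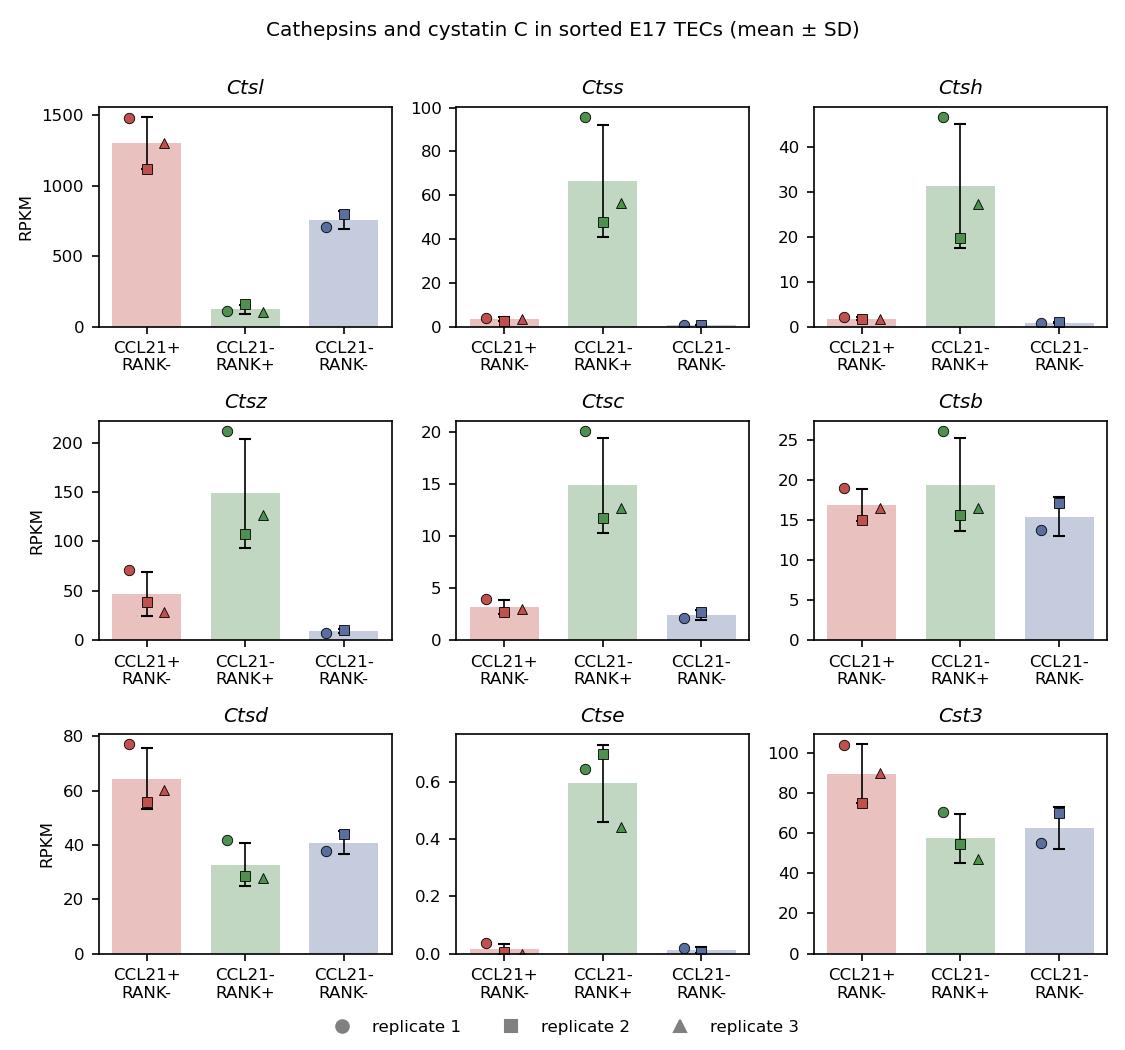
RPKM (linear axes from 0, a scale for each gene) of the 8 cathepsins and *Cst3* in the 8 libraries. Bars and whiskers give the mean ± SD (n = 3, 3, and 2) and symbols the libraries by replicate number. *Ctsl* is high in both RANK- populations, *Ctss*, *Ctsh*, *Ctsz*, *Ctsc*, and *Ctse* are highest in all 3 RANK+ libraries, and *Ctsb* overlaps between all groups.

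*Ctsl* (ENSMUSG00000021477, GRCm38 chr13:64359337-64370890, minus strand) encodes the cortical invariant-chain protease. Its level was 1480, 1114, and 1305 RPKM in CCL21+ libraries, 109.7, 159, and 100.2 RPKM in RANK+ libraries, and 707 and 800.1 RPKM in double-negative libraries. By RPKM it ranked 6th among protein-coding genes in each CCL21+ library, 14th and 13th in the double-negative libraries, and 242nd, 185th, and 285th in the RANK+ libraries. No RANK+ library reached the lowest of the others. Replicate 2 was the highest RANK+ library for *Ctsl* and also for the summed cortical markers (148, 189, and 120.0 RPKM), and any part of remaining cortical cells in these values was not tested. The log2 fold change was -3.51 ± 0.23 (SE) for RANK+ against CCL21+ (adjusted p = 2.47e-06) and -2.72 ± 0.24 against double-negative (adjusted p = 1.49e-05). In these bulk libraries, fewer cells that express a gene and less of its RNA per cell cannot be told apart. Between CCL21+ and double-negative TECs the log2 difference was 0.79 ± 0.24 (adjusted p = 0.0691), with both double-negative libraries below all 3 CCL21+ libraries. This difference lay on the edge of the threshold. Its adjusted p ranged from 0.0321 (without RANK+ replicate 2) to 0.277 (without double-negative replicate 1) when single libraries were left out, and from 0.000686 (DESeq2's Wald test) to 0.543 (a test against a fold of 1.5) over the other alternatives. It was 0.0435 without RANK+ replicate 1, 0.0466 in a fit that blocks on the replicate number, 0.16 without CCL21+ replicate 1, 0.0557 with upper-quartile scaling, and 0.0541 without Gm26917 and Gm42418, noncoding genes that take large and uneven shares of the libraries.

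*Ctss* (ENSMUSG00000038642, chr3:95526786-95556403, plus strand) encodes the invariant-chain protease of dendritic cells and B cells. Its level was 3.94, 2.39, and 3.61 RPKM in CCL21+ libraries, 95.5, 47.8, and 56.3 RPKM in RANK+ libraries, and 0.884 and 0.802 RPKM in double-negative libraries. All 3 groups were separate for *Ctss*, and RANK+ replicate 1 was the highest library. The log2 fold change was 4.20 ± 0.26 against CCL21+ (adjusted p = 1.68e-06) and 6.16 ± 0.35 against double-negative TECs (adjusted p = 1.3e-06). *Ctss* was also 3.91-fold higher in CCL21+ than in double-negative TECs (log2 1.97 ± 0.30, adjusted p = 0.00316). The 3 comparisons share libraries, so their values for one gene are not independent.

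The ratio of *Ctsl* to *Ctss* RPKM summarises this exchange. It was 376, 467, and 362 in CCL21+ libraries, 1.15, 3.32, and 1.78 in RANK+ libraries, and 799.9 and 998 in double-negative libraries. On the log2 scale the mean ratio was 0.92 ± 0.77 (SD, n = 3) in RANK+ and 8.64 ± 0.20 (SD, n = 3) in CCL21+ TECs. A two-sided exact permutation test gave p = 0.1, the smallest value that 3 against 3 libraries allow.

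*Ctsh* (ENSMUSG00000032359, chr9:90054152-90076089, plus strand), whose product is mainly an aminopeptidase, had nearly the same pattern as *Ctss*. Its level was 2.08, 1.60, and 1.57 RPKM in CCL21+ libraries, 46.6, 19.9, and 27.4 RPKM in RANK+ libraries, and 0.755 and 0.978 RPKM in double-negative libraries. The log2 fold change was 4.02 ± 0.28 against CCL21+ (adjusted p = 2.83e-06) and 5.04 ± 0.35 against double-negative TECs (adjusted p = 3.65e-06). *Ctsc* (ENSMUSG00000030560, chr7:88278085-88310888, plus strand) encodes dipeptidyl peptidase I, which activates granule serine proteases in immune cells. It was at 3.92, 2.68, and 2.94 RPKM in CCL21+, 20.1, 11.8, and 12.7 RPKM in RANK+, and 2.09 and 2.72 RPKM in double-negative libraries. It rose by 2.09 ± 0.20 (adjusted p = 2.11e-05) and by 2.51 ± 0.24 (adjusted p = 2.46e-05) on the log2 scale against the CCL21+ and double-negative groups. For both genes the 3 RANK+ libraries lay above the other 5, again with replicate 1 highest.

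*Ctsz* (ENSMUSG00000016256, chr2:174427493-174439039, minus strand), which encodes a carboxypeptidase, was graded over the 3 populations. It was at 71.2, 38.9, and 28.5 RPKM in CCL21+, 212, 107.5, and 127 RPKM in RANK+, and 7.42 and 10.7 RPKM in double-negative libraries. None of the 3 groups overlapped. The log2 fold change was 1.54 ± 0.34 for RANK+ against CCL21+ (adjusted p = 0.00369), 3.92 ± 0.44 for RANK+ against double-negative (adjusted p = 7.35e-05), and 2.38 ± 0.41 for CCL21+ against double-negative TECs (adjusted p = 0.00569). The last had an adjusted p of 0.0654 without double-negative replicate 1. At its end *Ctsz* shares 10 exonic bases with *Nelfcd* on the opposite strand. *Nelfcd* held 33.3% as many counts as *Ctsz*, and its log2 difference between RANK+ and CCL21+ TECs was 0.04 (adjusted p = 0.8366).

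The promoters of *Ctss*, *Ctsz*, and *Ctsc* are shown because these 3 genes were higher in RANK+ TECs than in both other populations. Promoter sequences from RefSeq (GRCm38.p6) matched 6 of the 9 genes, *Ctsl*, *Ctss*, *Ctsd*, *Ctsz*, *Ctsc*, and *Cst3*. The 250 bases before the start are printed 5′ to 3′ on the strand of the gene, and only where they hold no GENCODE exon. They cover chr3:95526536-95526785 for *Ctss*, chr2:174439040-174439289 for *Ctsz*, and chr7:88277835-88278084 for *Ctsc*. Capitals mark the single match to a pair of GAAA tetramers with 2 bases of any kind between them.
Ctss: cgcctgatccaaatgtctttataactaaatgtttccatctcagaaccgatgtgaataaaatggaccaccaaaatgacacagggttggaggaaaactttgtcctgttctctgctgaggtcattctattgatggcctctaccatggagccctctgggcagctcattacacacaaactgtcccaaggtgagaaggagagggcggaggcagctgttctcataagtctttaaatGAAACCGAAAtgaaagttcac
Ctsz: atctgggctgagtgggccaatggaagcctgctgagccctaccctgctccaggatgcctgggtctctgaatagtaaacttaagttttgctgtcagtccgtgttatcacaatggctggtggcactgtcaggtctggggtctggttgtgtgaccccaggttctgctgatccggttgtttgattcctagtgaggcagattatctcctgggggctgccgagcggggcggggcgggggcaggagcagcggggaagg
Ctsc: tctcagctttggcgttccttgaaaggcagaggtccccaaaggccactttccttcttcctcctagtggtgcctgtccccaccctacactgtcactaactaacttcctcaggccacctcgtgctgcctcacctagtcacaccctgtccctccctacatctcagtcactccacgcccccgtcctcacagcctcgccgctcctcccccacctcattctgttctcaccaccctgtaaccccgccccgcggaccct

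The motifs searched were CACGTG, the E-box core bound by lysosomal transcription factors, GGGNNTTTC, which resembles kappa-B sites, and the pair of GAAA tetramers spaced by 2 bases, which resembles interferon-response elements, each on both strands, and TATAAA on the gene's strand. The GAAA pair was added after the sequences were read. It began 21 bases before the start of *Ctss* and is held by 2.97% of all 32817 RefSeq promoters over the same 250 bases. CACGTG occurred at 2 places in the window of *Ctsd* and once in that of *Ctsl*, beside 6.02% of all promoters with a match, but both of these windows overlap GENCODE exons. GGGNNTTTC (3.72% of all promoters) and TATAAA (7.6%) matched in 0 of the 6 windows. G and C made up 44.8% of the window of *Ctss*, 58.8% of *Ctsz*, and 60.4% of *Ctsc*, beside a median of 52.4% over all promoters.

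**Figure D2:**
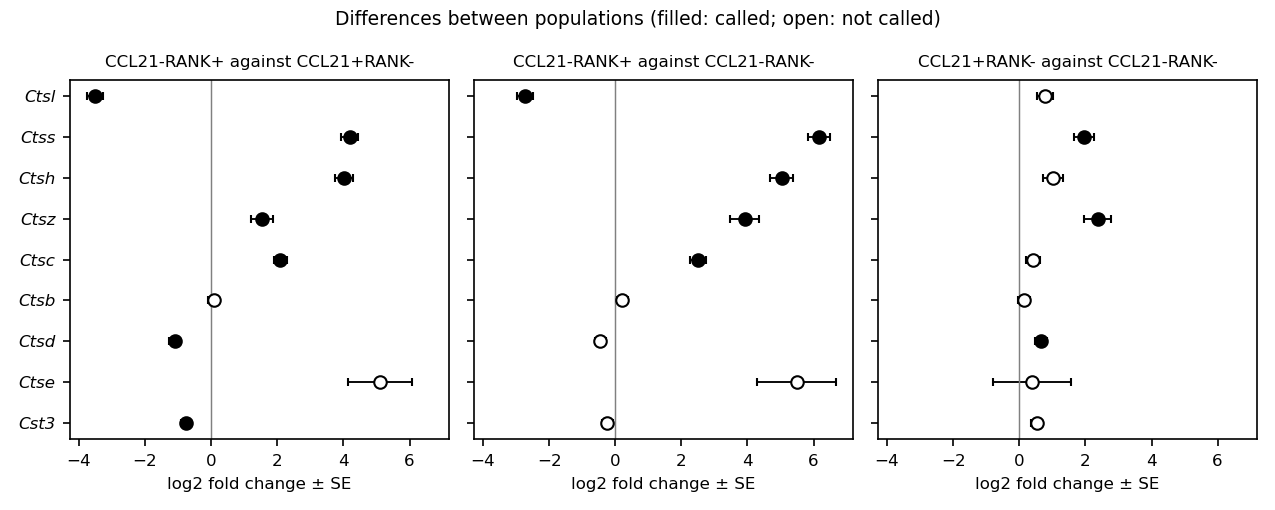
Log2 fold change ± SE from edgeR of the 8 cathepsins and *Cst3* in the 3 comparisons, with the first-named population above 0. Filled points were called and open points were not. *Ctss*, *Ctsh*, *Ctsz*, and *Ctsc* are above 0 and *Ctsl* below 0 in both comparisons with RANK+ TECs, and *Ctse* has the widest error.

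*Ctsd* (ENSMUSG00000007891, chr7:142375911-142388038, minus strand) encodes the main aspartic protease of lysosomes. It was at 77.0, 56.0, and 60.2 RPKM in CCL21+ libraries, 41.9, 28.5, and 27.7 RPKM in RANK+ libraries, and 37.8 and 43.9 RPKM in double-negative libraries. The CCL21+ libraries were above all others, and the 2 remaining groups overlapped. *Ctsd* fell by 1.11 ± 0.16 on the log2 scale from CCL21+ to RANK+ TECs (adjusted p = 0.000308). Against double-negative TECs, the log2 difference of RANK+ TECs was -0.45 ± 0.18 (adjusted p = 0.0597). This became 0.00931 without RANK+ replicate 1 and 0.037 without CCL21+ replicate 1, a library outside that pair of groups. *Gm49369*, on the same strand, shares 808 exonic bases with *Ctsd* and held 1.58% as many counts.

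*Ctsb* (ENSMUSG00000021939, chr14:63122462-63145923, plus strand), which encodes a broadly expressed endopeptidase, was at 19.0, 15.1, and 16.6 RPKM in CCL21+, 26.1, 15.7, and 16.5 RPKM in RANK+, and 13.8 and 17.1 RPKM in double-negative libraries. The groups overlapped in every comparison. The log2 difference between RANK+ and CCL21+ TECs was 0.07 ± 0.16 (adjusted p = 0.7404). It was -0.14 without RANK+ replicate 1, the highest library. The last exons of *Ctsb* overlap 774 exonic bases of *Fdft1* on the opposite strand, whose counts were 52.3% of those of *Ctsb* over all libraries. *Fdft1* differed between the groups, with 3626, 2066, and 2707 counts in CCL21+, 5436, 3921, and 3841 counts in RANK+, and 1613 and 1729 counts in double-negative libraries, and it was called higher in RANK+ than in CCL21+ TECs (log2 0.64) and than in double-negative TECs (log2 1.74). Both library kits named in the sources keep the strand, but whether the counting used it is not given in the sources used here.

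*Ctse* (ENSMUSG00000004552, chr1:131638306-131675505, plus strand) encodes an endosomal aspartic protease and was close to the limit of detection. It had 7, 1, and 0 counts in CCL21+ libraries, 117, 111, and 60 counts in RANK+ libraries, and 4 and 1 counts in double-negative libraries. The 3 RANK+ libraries were above all others, at 0.644, 0.698, and 0.443 RPKM. The log2 fold change was 5.11 ± 0.98 against CCL21+ (adjusted p = 0.00174) and 5.48 ± 1.19 against double-negative TECs (adjusted p = 0.00401), but *Ctse* was not called because its mean stayed under 1 RPKM. With so few counts in the other groups these sizes are loose, and leaving out single libraries moved them from 4.51 (without CCL21+ replicate 3) to 7.15 (without CCL21+ replicate 1) and from 4.75 (without double-negative replicate 2) to 6.81 (without double-negative replicate 1).

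*Cst3* (ENSMUSG00000027447, chr2:148871722-148875692, minus strand) was at 104, 75.1, and 90.1 RPKM in CCL21+, 70.7, 54.4, and 47.0 RPKM in RANK+, and 55.0 and 69.9 RPKM in double-negative libraries. Its CCL21+ libraries were above the others. *Cst3* fell by 0.77 ± 0.15 on the log2 scale from CCL21+ to RANK+ TECs (adjusted p = 0.00175). A test against a fold of 1.5 gave an adjusted p of 0.0973. The log2 difference between RANK+ and double-negative TECs was -0.24 ± 0.16 (adjusted p = 0.2532).

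Compared with double-negative TECs, the RANK+ TECs had 5 of the 9 genes called, with *Ctss*, *Ctsh*, *Ctsz*, and *Ctsc* higher and *Ctsl* lower. Of all tested genes, 29.5% were called in this comparison, 14.4% higher and 15.1% lower. The groups did not overlap for 6 of the 9 genes, beside 65.8% of all tested genes, and the median log2 fold change was 2.51, beside 0.06 over all tested genes.

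The 2 RANK- populations were also compared with each other. Their libraries did not overlap for 6 of the 9 genes, beside 38.8% of all tested genes. *Ctsz*, *Ctss*, and *Ctsd* were called higher in CCL21+ than in double-negative TECs and none was called lower, beside 8.02% of all tested genes called, 4.35% higher and 3.66% lower. *Ctsd* was 1.58-fold higher (adjusted p = 0.0434). That p was 0.232 and 0.202 without double-negative replicate 1 or 2, 0.109 and 0.089 without CCL21+ replicate 1 or 2, and 0.0511 and 0.0533 without RANK+ replicate 2 or 3. It was also 0.0515 without Gm26917 and Gm42418 and 0.719 in the test against a fold of 1.5. The log2 differences of *Ctsh* (1.02 ± 0.30, adjusted p = 0.0544) and *Cst3* (0.53 ± 0.17, adjusted p = 0.0731) missed the threshold. They passed it without RANK+ replicate 1, at adjusted p of 0.00642 for *Ctsh* and 0.0294 for *Cst3*, and *Ctsh* also did so without replicate 2 (adjusted p = 0.025). Without CCL21+ replicate 1 their adjusted p was 0.141 and 0.187, and without double-negative replicate 1 it was 0.279 and 0.376. With DESeq2's Wald test it was 0.00568 and 0.0221, with DESeq2's size factors in edgeR 0.0646 and 0.0744, and with a block for the replicate number 0.0318 and 0.0387. It was 0.00362 and 0.029 with no expression filter, 0.0412 and 0.0413 with at least 10 counts in every library, and 0.0137 and 0.0229 with only the libraries compared. With upper-quartile scaling it was 0.0499 and 0.0536, and without Gm26917 and Gm42418 0.0661 and 0.0833. The log2 differences of *Ctsc* (0.41 ± 0.22, adjusted p = 0.2852) and *Ctsb* (0.14 ± 0.18, adjusted p = 0.7192) did not pass. The count of 3 was 1 without double-negative replicate 1, 5 without RANK+ replicate 1, and between 2 and 4 without any other single library.

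Summed over the 8 cathepsins, the level was 1436 ± 214 RPKM (SD, n = 3) in CCL21+, 437 ± 101 RPKM (SD, n = 3) in RANK+, and 823 ± 75.1 RPKM (SD, n = 2) in double-negative TECs. *Ctsl* made up 89.3% to 92.0% of the sum in CCL21+ libraries and 91.3% to 91.9% in double-negative libraries. In RANK+ libraries it made up 19.8%, 40.7%, and 27.2%, *Ctsz* 38.4%, 27.5%, and 34.4%, and *Ctss* 17.3%, 12.2%, and 15.3%. Without *Ctsl*, the other 7 cathepsins summed to 136 ± 36.0 RPKM (SD, n = 3) in CCL21+, 314 ± 113 RPKM (SD, n = 3) in RANK+, and 69.5 ± 9.53 RPKM (SD, n = 2) in double-negative TECs. Thus the total was lowest in RANK+ TECs and the total without *Ctsl* was highest there. For both sums the exact permutation p between RANK+ and CCL21+ TECs was 0.1, the smallest possible.

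**Figure D3:**
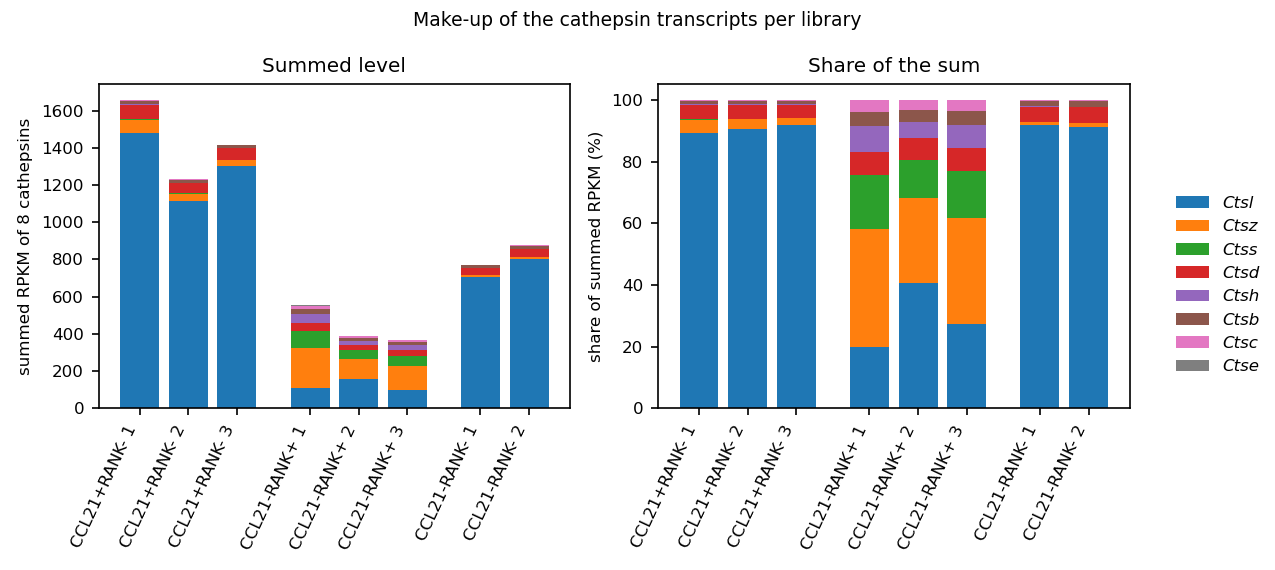
Summed RPKM of the 8 cathepsins (left) and the share of each in that sum in percent (right), with a bar for each library. *Ctsl* fills 89.3% or more of every RANK- library and 40.7% or less of every RANK+ library, where *Ctsz* is the largest part in replicates 1 and 3 and *Ctsl* in replicate 2.

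Within CCL21+ TECs the order of mean RPKM was *Ctsl*, *Cst3*, *Ctsd*, *Ctsz*, *Ctsb*, *Ctss*, *Ctsc*, *Ctsh*, and *Ctse*, in which *Cst3* and *Ctsd*, *Ctsd* and *Ctsz*, and *Ctss* and *Ctsc* overlapped between libraries. In double-negative TECs it was *Ctsl*, *Cst3*, *Ctsd*, *Ctsb*, *Ctsz*, *Ctsc*, *Ctsh*, *Ctss*, and *Ctse*, in which only *Ctsh* and *Ctss* overlapped. In RANK+ TECs it was *Ctsz*, *Ctsl*, *Ctss*, *Cst3*, *Ctsd*, *Ctsh*, *Ctsb*, *Ctsc*, and *Ctse*, and the neighbours overlapped except *Ctsl* and *Ctss*, *Cst3* and *Ctsd*, and *Ctsc* and *Ctse*. The order, and the shares of the cathepsin sum given above, depend on the length used. With the longest principal transcript of each gene (1617 bases in place of 4499 for *Ctsh*), a choice made after seeing the data, *Ctsh* was at 129.7, 55.2, and 76.2 RPKM in RANK+ libraries and above *Ctss* in each, and *Ctsl* remained first in all 5 RANK- libraries.

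Markers of other cell types moved with the RANK+ group, as the plot of their summed levels shows. Of the 15 macrophage and dendritic cell markers tested, 8 were higher in RANK+ than in CCL21+ TECs, beside 15.4% of all tested genes. Against double-negative TECs 8 of these markers were higher, beside 14.4% of all tested genes. Summed over the 16 listed, they were at 84.3, 22.8, and 30.6 RPKM in RANK+, 1.73, 1.56, and 1.39 RPKM in CCL21+, and 1.23 and 1.36 RPKM in double-negative libraries. RANK+ replicate 1 was the highest, as it was among RANK+ libraries for *Ctss*, *Ctsh*, *Ctsz*, and *Ctsc*, and also for *Ctsb*, *Ctsd*, and *Cst3*, which were not higher in RANK+ TECs by the test. *Lyz2*, the macrophage lysozyme, was the most abundant marker in RANK+ libraries, at 52.3, 14.7, and 17.9 RPKM, *Adgre1* was at 3.29, 2.13, and 1.18 RPKM, and *Csf1r* was at 1.74, 0.473, and 1.04 RPKM. *Ptprc*, which encodes the CD45 that the gate sorted out, was at 0.576, 0.178, and 0.422 RPKM there, and *Fcgr1* was at 0 in all 8 libraries. *Mertk*, from the same list, went the other way. Its mean was 0.208 RPKM in RANK+, 0.772 RPKM in CCL21+, and 0.836 RPKM in double-negative TECs. The log2 difference of RANK+ TECs was -1.999 against CCL21+ (adjusted p = 0.0023) and -2.104 against double-negative TECs (adjusted p = 0.0029). *Mertk* could not be called under 1 RPKM. The published study describes ectopic gene transcription in Aire-expressing medullary TECs. *Aire* was at a mean of 113 RPKM in RANK+, 0.747 RPKM in CCL21+, and 0.465 RPKM in double-negative TECs. Whether other cells in the sort or the RANK+ TECs themselves made these marker transcripts was not tested. Any part of other cells in the higher *Ctss*, *Ctsh*, *Ctsz*, and *Ctsc* was not tested either.

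Fibroblast markers summed to 52.7, 27.2, and 33.0 RPKM in RANK+ libraries and to 4.03 RPKM or less in the other 5, led by *Col1a1*. Of the 7, 5 were higher against either population, beside 15.4% (against CCL21+) and 14.4% (against double-negative) of all tested genes. *Pdgfra* was lower in RANK+ than in CCL21+ TECs, at a mean of 0.068 beside 0.196 RPKM (log2 -1.67, adjusted p = 0.0283). Under 1 RPKM it could not be called. Of 11 thymocyte markers 2, *Cd4* and *Lck*, of 4 B cell markers 1, *Cd79b*, and of 4 endothelial markers 1, *Tek*, were higher in RANK+ than in CCL21+ TECs. Against double-negative TECs, 5 thymocyte, 1 B cell, and 1 endothelial marker of these lists were higher in RANK+ TECs. *Rag1*, the most abundant thymocyte marker, was at 6.31, 2.57, and 5.99 RPKM in RANK+ and 5.12, 1.38, and 2.66 RPKM in CCL21+ libraries. In double-negative libraries it was at 1.115 and 1.018 RPKM. *Cd79b* was at 8.48, 4.61, and 4.95 RPKM in RANK+ libraries. In CCL21+ libraries, parathyroid markers summed to 7122, 1750, and 1955 RPKM, against 24.9 RPKM or less in the others. *Chga* was the most abundant, at 4061 RPKM in replicate 1. That library also had the highest RPKM of its group for all 9 genes. Without it, the log2 differences of *Ctsz* and *Ctss* against double-negative TECs stayed called, and 2 of the 9 genes were called in place of 3. Which cells made the transcripts of these markers was not tested, and neither was any part of such cells in the values of the cathepsins.

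**Figure D4:**
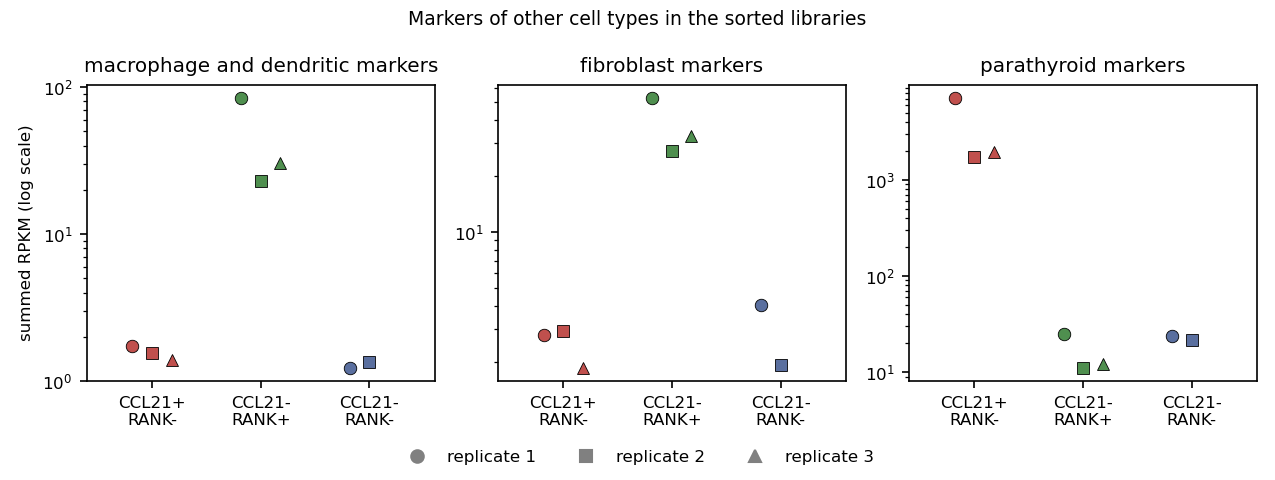
Summed RPKM (log scale, a scale for each panel) of 16 macrophage and dendritic cell markers, 7 fibroblast markers, and 4 parathyroid markers, with a symbol for each library by replicate number. The first 2 sums are highest in the RANK+ libraries, with replicate 1 above the other two, and the parathyroid sum is highest in the CCL21+ libraries.

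Other cathepsins were expressed at low levels. Of 5 tested, *Ctsk*, the collagenolytic cathepsin of osteoclasts, and *Ctsa*, a carboxypeptidase, were higher in RANK+ than in CCL21+ TECs, and *Ctsf* was lower. These stand beside 15.4% of all tested genes called higher and 15.4% called lower. *Ctsk* was at 2.38, 0.106, and 0.804 RPKM in RANK+ libraries, so that 1 of them lay within the range of CCL21+ libraries (0.0222, 0.144, and 0.084 RPKM). *Ctsa* was at 9.90, 5.93, and 7.24 RPKM in RANK+ and 5.57, 2.48, and 3.16 RPKM in CCL21+ libraries. It shares 495 exonic bases with the far more abundant *Pltp* on the opposite strand, which was lower in RANK+ TECs by 2.63 on the log2 scale, so the level of *Ctsa* is uncertain. None of the 9 placental cathepsins passed the filter. *Ctsll3* reached 0.933 RPKM in RANK+ replicate 1, and all 9 were at 0 in each RANK- library.

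Other lysosomal proteases also went both ways between RANK+ and CCL21+ TECs. Over all tested genes, 15.4% were called higher and 15.4% lower in this comparison. Of 8 listed, which are proteases except the reductase gene *Ifi30*, *Napsa*, *Ifi30*, and *Scpep1* were higher and 4, led by *Prss16*, *Lgmn*, and *Cpq*, were lower in RANK+ than in CCL21+ TECs. *Napsa*, an aspartic protease, was at 10.9, 3.07, and 4.69 RPKM in RANK+ libraries and at 0.105 RPKM or less in the other 5. *Ifi30*, the lysosomal thiol reductase that opens disulfide bonds of antigens, was at 363, 202, and 229 RPKM in RANK+ libraries, 50.2, 59.4, and 71.6 RPKM in CCL21+ libraries, and 63.8 and 71.0 RPKM in double-negative libraries. *Lgmn*, the asparagine-specific endopeptidase, was at 11.0, 5.97, and 7.16 RPKM in RANK+ libraries and at 50.3, 24.6, and 24.9 RPKM in CCL21+ libraries. The thymus-specific serine protease gene *Prss16* fell by 3.77 ± 0.22 on the log2 scale, beside 3.51 for *Ctsl*.

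Among the inhibitors, 4 of 14 cystatin and stefin genes were tested. *Cstb*, which encodes the intracellular inhibitor stefin B, was at 529, 581, and 653 RPKM in CCL21+ libraries, 105, 97.7, and 79.3 RPKM in RANK+ libraries, and 636 and 668 RPKM in double-negative libraries. It fell by 2.77 ± 0.13 on the log2 scale against CCL21+ TECs (adjusted p = 4.61e-07), with no overlap. *Cst6* rose by 1.70 ± 0.44 (adjusted p = 0.0088) from 0.533, 0.601, and 0.661 RPKM to 3.90, 0.985, and 1.57 RPKM.

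Of the 10 genes of the MHC class II pathway, 5 were higher in RANK+ than in CCL21+ TECs, with the largest changes in *H2-Ob*, *H2-DMb2*, and *H2-Aa*, and *Ciita* was lower. Of all tested genes, 15.4% were called higher and 15.4% lower. *Cd74*, the invariant chain that cathepsins L and S cut, was at 1363, 1297, and 1451 RPKM in CCL21+, 3437, 1964, and 2313 RPKM in RANK+, and 817 and 1045 RPKM in double-negative libraries. Its log2 fold change was 0.78 ± 0.18 (adjusted p = 0.00541). Against double-negative TECs, 7 of the 10 were higher in RANK+ and 4 in CCL21+ TECs, beside 14.4% and 4.35% of all tested genes.

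Other lysosomal genes were called in both directions, and the counts below stand beside 15.4% of all tested genes called higher and 15.4% called lower. Of 31 lysosomal hydrolases, 7 were higher in RANK+ than in CCL21+ TECs, led by *Arsb*, *Gusb*, and *Acp5*, and 7 were lower, among them *Gaa*, with a median log2 fold change of 0.05. *Gusb*, beta-glucuronidase, was at 67.1, 59.6, and 65.1 RPKM in RANK+ and 7.34, 6.16, and 6.81 RPKM in CCL21+ libraries. Of 17 lysosomal membrane genes, *Cd68* and *Slc17a5* were higher and 6 were lower, led by *Scarb2*, *Lamp2*, and *Laptm4b*. *Cd68* is also a macrophage gene.

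Of 24 vacuolar ATPase genes tested, which encode the pump that acidifies lysosomes, 6 were higher, led by *Atp6v0a4*, *Atp6v0e2*, and *Atp6v1c1*, and 3 were lower (*Tcirg1*, *Atp6v1g1*, and *Atp6v0d1*). *Igf2r* and *M6pr*, the mannose 6-phosphate receptors that carry cathepsins to lysosomes, rose by 1.05 ± 0.09 and 0.86 ± 0.14 on the log2 scale. Together with *Gnptg*, they were the 3 of 13 sorting genes called higher, and *Gga2* was lower. Of the 3 lysosomal transcription factor genes tested, *Mitf* and *Tfe3* were lower and *Tfeb* did not pass the test (log2 0.43 ± 0.24, adjusted p = 0.1533).

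**Figure D5:**
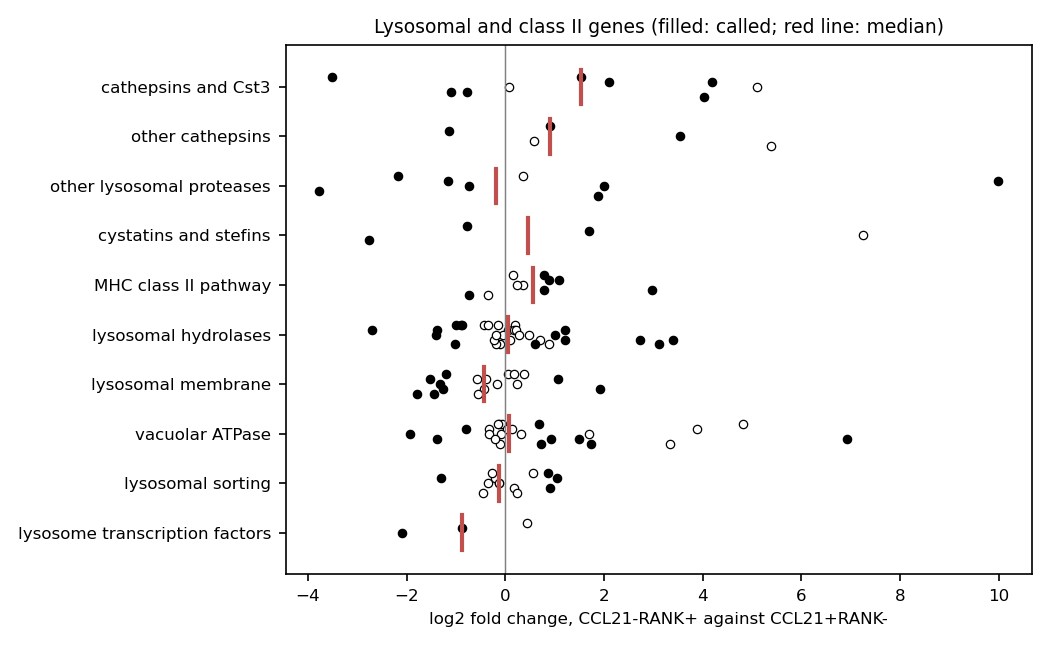
Log2 fold change of RANK+ against CCL21+ TECs for the tested genes of each list, with filled points for called genes, open points for the others, and a red line at the median of the list. The 9 cathepsin and *Cst3* genes spread from -3.51 to 5.11, and the hydrolases spread around a median of 0.05.

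Among 10842 tested genes with a mean of at least 5 CPM (counts scaled to the library total), the 5 whose log2 CPM over the 8 libraries was most like that of *Ctsl* were *Slc29a1* (Pearson r = 0.9991), *Dhrs3* (r = 0.9985), *Kctd10* (r = 0.9984), *Clca2* (r = 0.9982), and *Itpk1* (r = 0.9979). For *Ctss* they were *Gsta2* (r = 0.9984), *Cpeb4* (r = 0.998), *Ces2g* (r = 0.9976), *Grin2c* (r = 0.9976), and *Dusp4* (r = 0.9973). *Dusp4* was at a mean of 81.2 RPKM in RANK+ and 5.03 RPKM in CCL21+ TECs. These r values are descriptions, since the 8 libraries fall into 3 groups and any gene with the same order of groups scores high.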

How the data were processed

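RNA-sequencing of 8 libraries of sorted E17 mouse TECs was analysed. Expected counts from RSEM, without normalization, make up the single table that the authors deposited. Per the labels' processing notes, the tools were bcl2fastq 2.20, Trimmomatic, STAR 2.5.1, and RSEM 1.3.1 on mm10. The labels give a NEBNext Ultra II Directional library kit, whereas the published methods give CLC Genomics Workbench, paired-end reads, and a TruSeq Stranded Total RNA kit. The published methods give default parameters for the CLC software. The settings of STAR and RSEM are not given in the sources used here.

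Expected counts were rounded and tested with the quasi-likelihood test of edgeR 4.0.16 (R 4.3.3) after TMM normalization and its default expression filter, in one fit of the 3 groups, with Benjamini-Hochberg adjustment over 21451 genes. SEs were derived from the F statistic. The common biological coefficient of variation was 0.326, so replicate spread, not counting error, limits expressed genes. The noncoding genes Gm26917 and Gm42418 took 6.89% to 19.4% and 1.47% to 10.7% of a library, which lowers all RPKM. All 55450 identifiers matched GENCODE M21 (GRCm38), which gave positions and exon lengths. Motifs were searched in RefSeq promoters (GRCm38.p6). Code was tested on simulated data.

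The 9 genes and all gene lists were chosen with earlier results of these data known. Named from each other list were up to 3 called genes per direction with the largest change between RANK+ and CCL21+ TECs, and the most abundant cell type marker. *Cd74*, *M6pr*, *Adgre1*, *Csf1r*, *Ptprc*, *Fcgr1*, *Mertk*, *Pdgfra*, *Dll4*, *Tfeb*, *Ctsll3*, *Dusp4*, and genes that overlap cathepsins were also named, after their values were seen. Alternatives were DESeq2 1.42.0, other scalings, filters, thresholds, lengths, and subsets of libraries. Some genes covered by the naming rule are not reported here.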

Additional observations from a re-analysis of the deposited data

How the results depend on the processing

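The number of the 9 genes called stayed between 6 and 8 for RANK+ against CCL21+ TECs and between 5 and 6 for RANK+ against double-negative TECs under every alternative tried, and *Ctsl*, *Ctss*, *Ctsh*, *Ctsz*, and *Ctsc* kept their directions and adjusted p under 0.05 in both. For CCL21+ against double-negative TECs, 3 genes were called, but 5 with DESeq2's Wald test, 5 with no expression filter, 6 with at least 10 counts in every library, 5 with only the libraries compared, 2 with a test against a fold of 1.5, 2 without Gm26917 and Gm42418, and from 1 to 5 when single libraries were left out. With the replicate number as a block, the count was 6 in that comparison and 7 and 5 in the other two. The deviations of libraries that carry one number correlated at 0.126, 0.0485, and 0.0707 between CCL21+ and RANK+ TECs. Between the same groups, libraries with different numbers correlated from -0.0984 to 0.041, below all of these. For one number the values were -0.0528 and -0.117 between CCL21+ and double-negative TECs, where different numbers gave -0.0548 to 0.117. They were -0.0519 and -0.0411 between RANK+ and double-negative TECs, where different numbers gave -0.0145 to 0.0519. The sources used here do not say whether the numbers pair the libraries, and these values do not settle it. The main fit used no block. The cause of the shifts in the counts of called genes was not tested.

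When single libraries were left out, log2 fold changes turned sign only for *Ctsb*, from -0.14 to 0.21 in RANK+ against CCL21+ TECs and from -0.0021 to 0.36 against double-negative TECs, and for *Ctse*, from -1.67 to 1.71 in CCL21+ against double-negative TECs, where it has at most 7 counts per library. None of these passed the threshold. DESeq2's size factors moved the median log2 fold change of all genes by 0.14 and upper-quartile scaling by 0.12 in RANK+ against double-negative TECs, less than the changes of the 5 genes called there. Over all genes, adjusted p alone called 11516 genes for RANK+ against CCL21+ and 10501 against double-negative TECs, in place of 6618 and 6332. For CCL21+ against double-negative TECs, 1720 genes became 676 with a test against a fold of 1.5, and 772 or 657 without double-negative replicate 1 or 2. The order of the 9 genes by mean RPKM over all libraries changed for 0 genes under 2 other library sizes and for 5 genes with the length of the principal transcript.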
